A study of Mus musculus with 18 samples.

Results

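The genes described here encode 8 intermediate filament proteins of neurons, glia and their precursors: Ina (α-internexin), the light, medium and heavy neurofilament chains Nefl, Nefm and Nefh, Prph (peripherin), Nes (nestin), Vim (vimentin) and Gfap (glial fibrillary acidic protein). They were taken by symbol, with earlier results of these data known. All 8 were found among the 35734 genes of the fibroblast comparison and among the 21887 protein-coding gene windows of the retinal chromatin data. A gene window is the gene body with 2 kb on each side.

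Intermediate filaments are rope-like polymers that give a cell mechanical strength, and the protein used depends on the cell type. Neuronal precursors and mesenchymal cells make vimentin, neural stem cells add nestin, and maturing neurons go over to α-internexin and then to the neurofilament triplet. Peripherin is found mainly in peripheral neurons and a few central ones. Astrocytes and Müller glia, the radial glia of the retina, carry vimentin, and GFAP rises in them after injury.

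The study comprises 18 mouse samples (10 groups), and files of 14 of them were given. Embryonic fibroblasts (MEFs) of the R26-M2rtTA line on C57BL/6 carried doxycycline-inducible lentiviruses for Brn2 and Myt1l, which are neuronal transcription factors. To these were added none, or Ikzf1 and Ikzf4, zinc finger factors of the Ikaros family, for 48 h, with 3 RNA-seq libraries per group. All 6 libraries therefore share Brn2, Myt1l and the reverse transactivator, and their labels do not say whether replicates were separate cultures. The multiome chromatin data comprise 1 control library and 1 library titled Ikzf1/4. The control is labelled as Müller glia of retina from C57BL/6 mice of the line GLAST-CRE ERT2 ; RosaYFP, with mCherry. In that line a glutamate transporter promoter active in Müller glia and astrocytes drives the inducible recombinase. The Ikzf1/4 sample's labels repeat its title in place of tissue, line and strain. Both are described with tamoxifen at 14 days while the run names in the file headers carry 48 h, so the time is not settled here, and the animals' age and number are not given for them. The RNA part of the multiome and the single-cell RNA-seq were not analysed here, and neither were the fibroblast chromatin peaks at these genes.

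The fibroblast libraries held between 34966344 and 44270426 estimated reads. In the authors' deposited table Ikzf4 and Ikzf1 were higher by 8.54 and 7.76 on the log2 scale in the libraries given them. Of the shared factors, Myt1l was higher there by 0.50 (SE 0.17, DESeq2 adjusted p = 0.0157) and Brn2 (listed as Pou3f2) had -0.05 (SE 0.084, not called) in the authors' deposited table. The control multiome library gave 1876 cells with a median of 6238.5 fragments, and the Ikzf1/4 library 690 cells with 10913.5. The libraries shared 3 barcodes. With 1 library per condition no test of the condition is possible, and every interval on fragments covers counting error only. Differences between the libraries therefore compare these 2 libraries, whose preparation and treatment cannot be told apart.

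The 250 bases before the start site are shown for the 4 genes on which the results turn: Ina and Vim, which moved in fibroblasts, and Nes and Gfap, the other genes of neural precursors and glia. Sequences are from RefSeq (build GRCm38.p6), which had an entry for 5 of the 8 genes. Nefl, Nefm and Nefh had none. Capitals mark 3 motifs, searched on both strands. The first is TATAAA, a core element found just before the start of many genes. The second is CCAAT, a common promoter element, which reads ATTGG on the other strand. The third is TGGGAA, a form of the core bound by Ikaros factors, which reads TTCCCA on the other strand.
Ina, chr19:47014431-47014680, plus strand: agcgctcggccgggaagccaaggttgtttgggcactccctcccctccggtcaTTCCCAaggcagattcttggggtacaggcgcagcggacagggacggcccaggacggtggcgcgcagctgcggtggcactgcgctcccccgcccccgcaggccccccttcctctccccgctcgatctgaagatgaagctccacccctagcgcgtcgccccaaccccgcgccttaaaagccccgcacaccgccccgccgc
Vim, chr2:13574061-13574310, plus strand: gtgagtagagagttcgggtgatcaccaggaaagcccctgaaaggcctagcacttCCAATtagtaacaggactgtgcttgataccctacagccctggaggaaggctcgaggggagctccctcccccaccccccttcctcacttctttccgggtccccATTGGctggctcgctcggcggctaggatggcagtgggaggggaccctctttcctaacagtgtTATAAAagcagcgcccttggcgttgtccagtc
Nes, chr3:87970843-87971092, plus strand: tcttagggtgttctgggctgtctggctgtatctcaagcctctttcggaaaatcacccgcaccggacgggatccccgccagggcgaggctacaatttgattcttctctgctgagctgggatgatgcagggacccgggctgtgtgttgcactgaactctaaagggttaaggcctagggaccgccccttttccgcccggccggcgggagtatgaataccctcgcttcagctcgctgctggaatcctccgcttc
Gfap, chr11:102897201-102897450, minus strand: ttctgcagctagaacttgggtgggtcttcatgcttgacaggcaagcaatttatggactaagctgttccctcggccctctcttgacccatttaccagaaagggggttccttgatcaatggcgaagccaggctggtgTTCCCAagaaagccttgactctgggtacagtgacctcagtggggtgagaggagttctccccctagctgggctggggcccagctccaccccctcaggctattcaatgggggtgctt

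The 4 promoters differ in composition. Ina's is 70.8% G and C with 25 CpG dinucleotides, Nes's 58.8% with 15, Vim's 58.4% with 8 and Gfap's 55.6% with 2, where the median of 32851 promoters is 52.4% with 6. Counting from the start site, TATAAA begins at position -32 in Vim, a motif present in 12.4% of all these promoters. Vim also holds CCAAT at -196 and, on the other strand, at -94, a motif found in 33.9%. TGGGAA lies on the other strand at -198 in Ina and at -115 in Gfap, and 21.6% of all promoters hold it. Nes holds none of the 3. The letters are a description and say nothing about binding.

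In fibroblasts, Ina and Vim moved in opposite directions. The values come from the authors' deposited table, since the deposited files pair no transcripts with genes and so give no value per library for a gene. They are log2 fold changes with Ikzf1 and Ikzf4 against without, they may be shrunk toward 0, and they are descriptive here because the genes were chosen with this comparison known. Of the 7 genes with an adjusted p, 1 was called higher and 1 lower at an adjusted p under 0.05. Among all 16757 genes with an adjusted p the authors' deposited table calls 30.6% (15.3% higher and 15.4% lower).

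Among the neuronal genes, Ina (ENSMUSG00000034336; chromosome 19, 47014681 to 47025327) rose by 1.19 (SE 0.18) in the authors' deposited table. That is above the fold change of 99.1% of genes with an adjusted p, from a mean normalised count of 177 over the 6 libraries. α-Internexin is the filament protein that young central neurons make before the triplet. None of the triplet was called. Nefm had 0.18 (SE 0.18) at a mean of 151 and Nefh 0.13 (SE 0.20) at a mean of 124 in the authors' deposited table, so both were measured at a depth like Ina's. Nefl had -0.04 (SE 0.23) at a mean of 29.7. For Prph the deposited table of the authors gives 0.11 (SE 0.19) at a mean of 6.66.

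Vim (ENSMUSG00000026728; chromosome 2, 13574311 to 13582826), the main filament of fibroblasts, was among the most abundant transcripts, with a mean normalised count of 101766. It fell by 0.59 (SE 0.061) on the log2 scale in the authors' deposited table, and 3.65% of genes lay lower. Nes, which is built into filaments together with vimentin, had 0.10 (SE 0.069) at a mean of 4938 in the authors' deposited table. Gfap was near absent there, with a mean of 2.81, a fold change of -0.07 (SE 0.12) and no adjusted p. With an added requirement of an absolute log2 fold change over 1, Ina alone stayed called, and 2.15% of all genes in the authors' deposited table pass that rule. A limit to genes at or above the median count leaves out Ina by its mean, so Ina was not tested there, and only Vim stayed called.

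**Figure D1:**
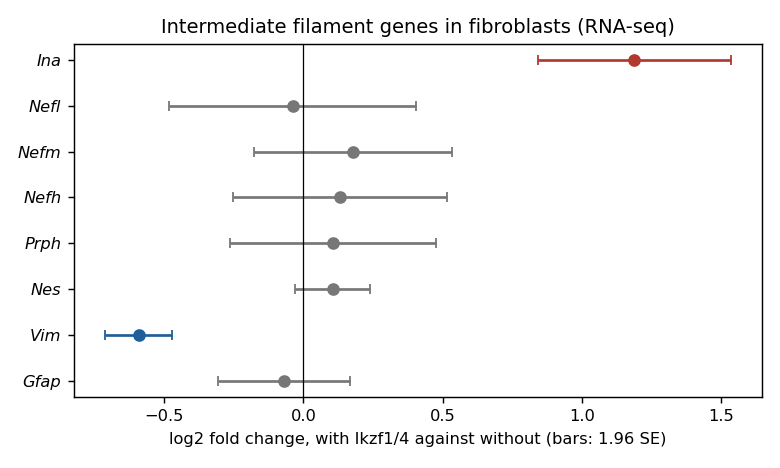
Log2 fold change of each of the 8 genes in fibroblasts with Ikzf1 and Ikzf4 against without, from the authors' deposited table; bars are 95% intervals from the SE, red marks a gene called higher and blue one called lower. Ina lies at 1.19 and Vim at -0.59, while the bars of the other 6 cross 0.

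Cytolinkers bind and anchor filaments. Of 11 cytolinkers and chaperones 5 were higher and 1 lower in the authors' deposited table, which calls 15.3% of all genes higher and 15.4% lower. Their median was 0.25, where that of all genes was -0.0004. Dsp (desmoplakin, which ties filaments to desmosomes) rose by 1.68 (SE 0.17), Ppl (periplakin) by 0.87 (SE 0.22) and Syne3 (which links plectin to the nuclear envelope) by 0.46 (SE 0.12). Cryab, a small heat shock protein that chaperones vimentin and desmin, fell by 0.76 (SE 0.059). Outside the naming rule and chosen after their values were seen, Dst (0.45) and Plec (0.23) complete the 6 called in the authors' deposited table.

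The counts for the next lists stand beside the 15.3% higher and 15.4% lower among all genes in the authors' deposited table. Among 19 other intermediate filament genes 14 had an adjusted p, and 3 were higher and 0 lower, with a median of 0.04. They were Sync (syncoilin) at 0.65 (SE 0.12) and the epithelial keratins Krt19 at 0.61 (SE 0.17) and Krt80 at 0.59 (SE 0.21) in the authors' deposited table. Of 7 motors that carry filaments 3 were higher and 0 lower: Kif5a (0.41, SE 0.097), a neuronal kinesin heavy chain, Kif5b (0.18, SE 0.047) and Klc1 (0.16, SE 0.055). Of 13 kinases, ligases and other modifiers of filaments 1 was higher and 2 lower. Cdk5, which phosphorylates neurofilaments, fell by 0.43 (SE 0.065), and so did its activator Cdk5r1 (0.43, SE 0.17) in the authors' deposited table.

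Of 14 other neuronal genes with an adjusted p, 1 was higher and 2 lower, with a median of -0.11 in the authors' deposited table, which calls 30.6% of all genes. The adhesion molecule L1cam rose by 0.72 (SE 0.19), while neuronal tubulin Tubb3 fell by 0.42 (SE 0.10) and the vesicle protein Syt1 by 0.47 (SE 0.063). Fibroblast genes fell beside Vim: 7 of 10 were lower and 0 higher, with a median of -0.39, led by Dcn (-1.77, SE 0.082), Col3a1 (-1.29, SE 0.064), Postn (-0.63, SE 0.082) and Thy1 (-0.53, SE 0.068). Bulk RNA cannot tell fewer cells of a type from less RNA per cell.

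Markers of other cells were also read in the authors' deposited table, where 30.6% of all genes are called. Among muscle genes 1 of 4 was higher (Cnn1, 0.36) and 2 lower (Acta2, -0.50, and Tagln, -0.21), and of 4 endothelial genes 1 was lower (Flt1, -0.76). Of 7 glial and neural crest genes and of 5 macrophage genes 0 were called, although the macrophage receptor Csf1r had a mean of 2580 normalised counts. The part of other cells in the values of Ina and Vim was not tested.

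**Figure D2:**
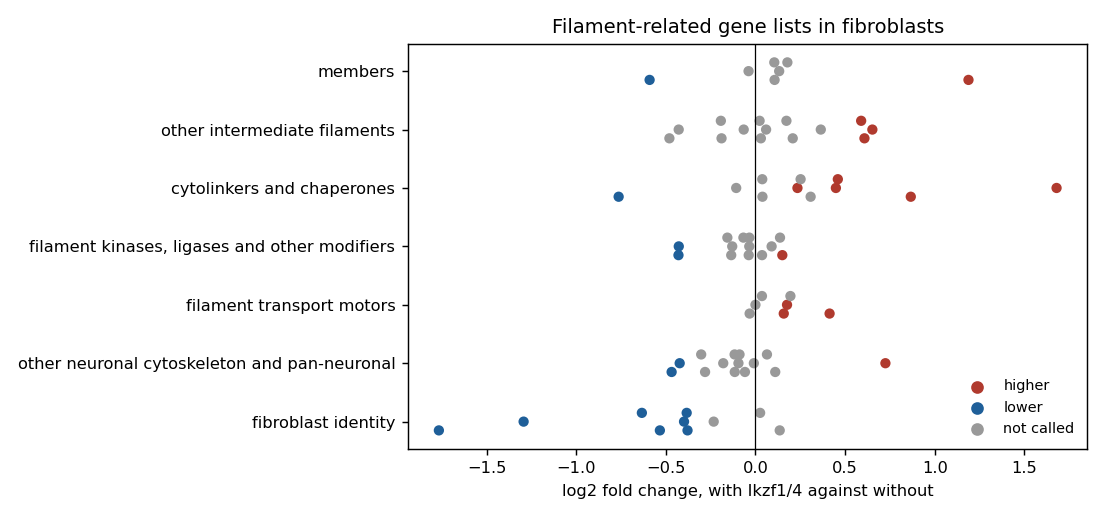
Log2 fold changes in fibroblasts of the 8 filament genes (top row, labelled members) and of 6 related lists, from the authors' deposited table, with 1 point per gene that has an adjusted p; red is called higher, blue called lower and grey not called. Cytolinkers lie mostly to the right of 0, up to 1.68 for Dsp, and fibroblast identity genes mostly to the left.

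In the retinal libraries, chromatin accessibility was counted as transposase fragments centred in each gene window, as CPM, counts scaled to all fragments of the same cells. Fragments are not transcripts, so these values show how open a gene is and not its RNA. Windows differ in length and levels are compared between libraries or cell groups, never between genes. Over all cells, the control and Ikzf1/4 libraries had 292 and 290 fragments at Ina (21.7 and 33.1 CPM). Nefl had 33 and 14 fragments (2.46 and 1.60 CPM), and Nefm 105 and 45 (7.81 and 5.13 CPM). For Nefh the counts were 350 and 339 (26.0 and 38.6 CPM), and for Prph 109 and 77 (8.11 and 8.78 CPM). Nes had 181 and 124 (13.5 and 14.1 CPM), Vim 273 and 150 (20.3 and 17.1 CPM), and Gfap 140 and 137 (10.4 and 15.6 CPM).

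The ratio of Ikzf1/4 to control was 1.52 for Ina (95% exact binomial interval 1.29 to 1.80), 1.48 for Nefh (1.27 to 1.73) and 1.499 for Gfap (1.18 to 1.91). It was 0.66 for Nefm (0.45 to 0.94). The intervals of the other 4 held 1: Nefl at 0.65 (0.32 to 1.25), Prph at 1.08 (0.80 to 1.46), Nes at 1.05 (0.83 to 1.33) and Vim at 0.84 (0.69 to 1.03). So 3 of 8 intervals lay above 1 and 1 below. Of 16282 windows with at least 100 fragments, a minimum that Nefl does not reach, 33.9% lay above and 13.5% below. On this count, which leaves out the size of a ratio, the share of these genes is near that of all windows. By size, the ratios of Ina, Gfap and Nefh exceeded those of 98.2%, 97.8% and 97.5% of these windows. For Prph, Nes, Vim, Nefm and Nefl this was 53.0%, 45.7%, 14.8%, 3.34% and 3.13%. With every cell thinned to 3000 fragments the ratio of Ina was 1.13 (0.80 to 1.56), and for the share of those cells with a fragment it was 1.07 (0.74 to 1.52). Over all barcodes it was 1.28 (1.13 to 1.45). The ratio of Gfap was 1.07 (0.74 to 1.56) in cells with at least 10000 fragments and 1.31 (0.96 to 1.78) for the gene body alone, but 1.88 (1.22 to 2.85) thinned and 2.30 (1.17 to 4.63) within 500 bp of the start site. For Nefm the interval held 1 in cells with at least 10000 fragments (0.89, 0.56 to 1.45), for the gene body alone (0.67, 0.45 to 1.005), thinned (0.60, 0.27 to 1.22) and for the share of cells with a fragment (0.62, 0.28 to 1.25). That of Nefh held 1 for the share of cells (1.30, 0.96 to 1.75). The interval of Vim fell below 1 within 500 bp of the start site (0.75, 0.58 to 0.97) and when scaled to fragments in gene windows (0.79, 0.64 to 0.96). Thinned, the Vim ratio was 1.11 (0.77 to 1.57).

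**Figure D3:**
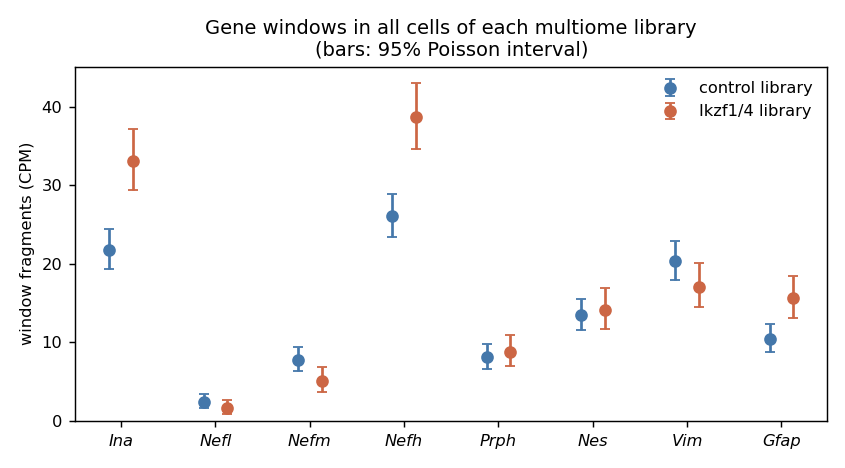
Fragments in each gene window over all cells of the control (blue) and Ikzf1/4 (orange) libraries, in CPM, with 95% exact Poisson intervals for counting error. Ina, Nefh and Gfap stand higher in the Ikzf1/4 library, and Nefm lower. For each of these the interval of the ratio holds 1 under at least 1 alternative given, and for Nefm under several.

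The libraries differ in their makeup, and its part in those ratios was not tested. Cells were clustered on gene windows with the 8 windows, and any touching them, left out, which gave 9 clusters, and clusters were named from fixed marker lists. Clusters 0 and 4 were bipolar-like (639 and 233 cells), 1 Müller glia-like (433), 2 cone-like (389), 5 rod-like (227), 6 microglia-like (132) and 8 amacrine-like (68). Cluster 3 (330 cells) had 11 of 12 Müller glia markers at least 1.5 times above the other cells, but its 10 leading genes held Pax6 of the amacrine list and none of the glial list, so it stays unnamed. Its Müller glia list summed to 1810 CPM, where cluster 1 had 1406. Its endothelium list summed to 437 CPM (345 in cluster 1), the highest of all clusters. Its microglia list summed to 314 CPM, against 134 in cluster 1 and 714 in microglia-like cells. Cluster 7 (115 cells of high depth) is unnamed too. So although the control is labelled Müller glia, only clusters 1 and 3 carried that marker set, 33.7% of control cells and 18.8% of Ikzf1/4 cells. Rod-like cells made up 5.06% of control and 19.1% of Ikzf1/4 cells, and the share of bipolar-like cluster 4 was 6.02% and 17.4%.

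Marker levels of each class were the following. Cluster 1 held Dkk3 at 218, Glul at 195 and Slc1a3 at 172 CPM, and cluster 3 Glul at 327, Dkk3 at 279 and Hes1 at 272 CPM. Rod-like cells held Sag at 274 and Pde6b at 195 CPM, and cone-like cells Thrb at 328, Cngb3 at 151 and Pde6c at 117 CPM. Bipolar-like cluster 4 held Prkca at 1349 and Trpm1 at 543 CPM. In bipolar-like cluster 0 Prkca was at 198 CPM, below the 359 CPM of the other cells, Trpm1 at 148 and Grik1 at 120 CPM. Microglia-like cells held Ptprc at 144 and Csf1r at 121 CPM, and amacrine-like cells Slc6a9 at 216, Pax6 at 131 and Tfap2a at 65.7 CPM.

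Vim was most open in clusters 1 and 3. It stood at 57.6 CPM in cluster 1 (95% exact Poisson interval 49.8 to 66.2) and 47.5 in cluster 3 (37.9 to 58.8), which overlap. Next came cluster 7 at 18.2, microglia-like at 17.1, amacrine-like at 8.42, cone-like at 8.37, bipolar-like clusters 0 and 4 at 4.76 and 3.24, and rod-like cells at 3.15 CPM. Cluster 1 was 4.79 times (3.93 to 5.82) above all other cells, and 9.87% of windows were at least 1.5 times higher there. The step from cluster 3 to cluster 7 was the only one in that order where neighbouring intervals did not overlap.

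Gfap had its highest level in cluster 3, at 45.3 CPM (35.9 to 56.3), which was 4.70 times (3.58 to 6.12) that of the other cells, where 7.55% of windows were at least 1.5 times higher. Cluster 1 followed at 17.0 CPM (12.9 to 21.9). These levels pool both libraries: in control cells alone cluster 3 had 19.2 CPM (12.3 to 28.5) and cluster 1 12.6 (8.70 to 17.6), which overlap each other and the 12.2 CPM (6.69 to 20.5) of microglia-like cells, and in the 70 Ikzf1/4 cells of cluster 3 it was 109 CPM (82.1 to 141). From cluster 1 the pooled levels ran down to 3.92 CPM in cone-like cells (2.20 to 6.47) with each interval overlapping the next. Nes was level between cluster 3 (27.2 CPM), microglia-like cells (27.2) and cluster 1 (23.7), and lowest in bipolar-like cluster 4 (6.02), over both libraries. In control cells alone Nes was at 28.0 CPM in microglia-like cells, 22.4 in cluster 3 and 20.7 in cluster 1, with overlapping intervals, and lowest in cone-like cells at 4.08.

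The windows of Ina and Nefh were most open in neuronal clusters. They also take in parts of other genes, Nt5c2 at Ina and Ap1b1 at Nefh among them. The order of clusters therefore describes the windows and cannot be assigned to 1 gene. Ina was highest in bipolar-like cluster 4 at 67.1 CPM (56.7 to 79.0), then amacrine-like cells at 42.1 and bipolar-like cluster 0 at 42.0, and lowest in cluster 3 (6.79) and microglia-like cells (6.43), over both libraries. In control cells alone the lowest level was that of rod-like cells, at 3.43 CPM from 2 fragments. Cluster 4 was 3.08 times (2.53 to 3.73) above the other cells at Ina, where 7.11% of windows were at least 1.5 times higher. Nefh was highest in rod-like cells at 63.0 CPM (52.3 to 75.4) and cone-like cells at 46.6, and lowest in cluster 3 at 5.66.

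Nefm and Nefl, which lie close together on chromosome 14, were both highest in amacrine-like cells among all 9 clusters. There Nefm reached 37.1 CPM (23.2 to 56.1) and Nefl 11.8 CPM (4.74 to 24.3). The Nefl level rests on 7 fragments, and its interval overlaps that of bipolar-like cluster 4 (2.78 CPM, 1.02 to 6.05). In rod-like cells Nefm and Nefl both had 0 fragments, which allows up to 1.94 CPM by the exact interval. Amacrine-like cells came almost wholly from the control, with 66 cells against 2. Their median was 8202 fragments, so a limit of 10000 leaves many of them out. In cells with at least 10000 fragments Nefl was highest in cone-like and Nefm in bipolar-like cells. At clustering resolution 0.4 both were highest in bipolar-like cells, but that setting gave no amacrine-like cluster. At resolution 1.2 both were highest in amacrine-like cells. Prph was flat, from 12.04 CPM in bipolar-like cluster 4 to 6.83 in rod-like cells, with every interval overlapping the next.

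Several of these windows also contain parts of other genes. The Ina window takes in the start site of Nt5c2 on the opposite strand, and 36.0% (control) and 42.4% (Ikzf1/4) of its fragments lay within 500 bp of that site. At Nefh (chromosome 11, 4938754 to 4948064), 34.0% and 36.6% of control fragments fell in the adjoining 500 bp bins 4946754 to 4947253 and 4947254 to 4947753, the latter holding the annotated edge of Ap1b1. Fragments there cannot be told apart by gene. Nefm overlaps the noncoding A230070E04Rik, Prph Gm41399, and Gfap Fam187a and Gm34560. Outside the bodies of the other genes, the library ratio was 1.46 for Ina (1.14 to 1.86), 1.44 for Nefh (1.16 to 1.80), 1.39 for Gfap (1.04 to 1.87), 1.09 for Prph (0.80 to 1.48) and 0.64 for Nefm (0.36 to 1.10). At Ina this removes Ina's own start site and keeps the bases just upstream of the Nt5c2 start. At Nefh it keeps the bin 4946754 to 4947253 beside Ap1b1. These ratios therefore do not separate Ina and Nefh from their neighbours. The windows of Vim, Nes and Nefl hold no other annotated gene.

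**Figure D4:**
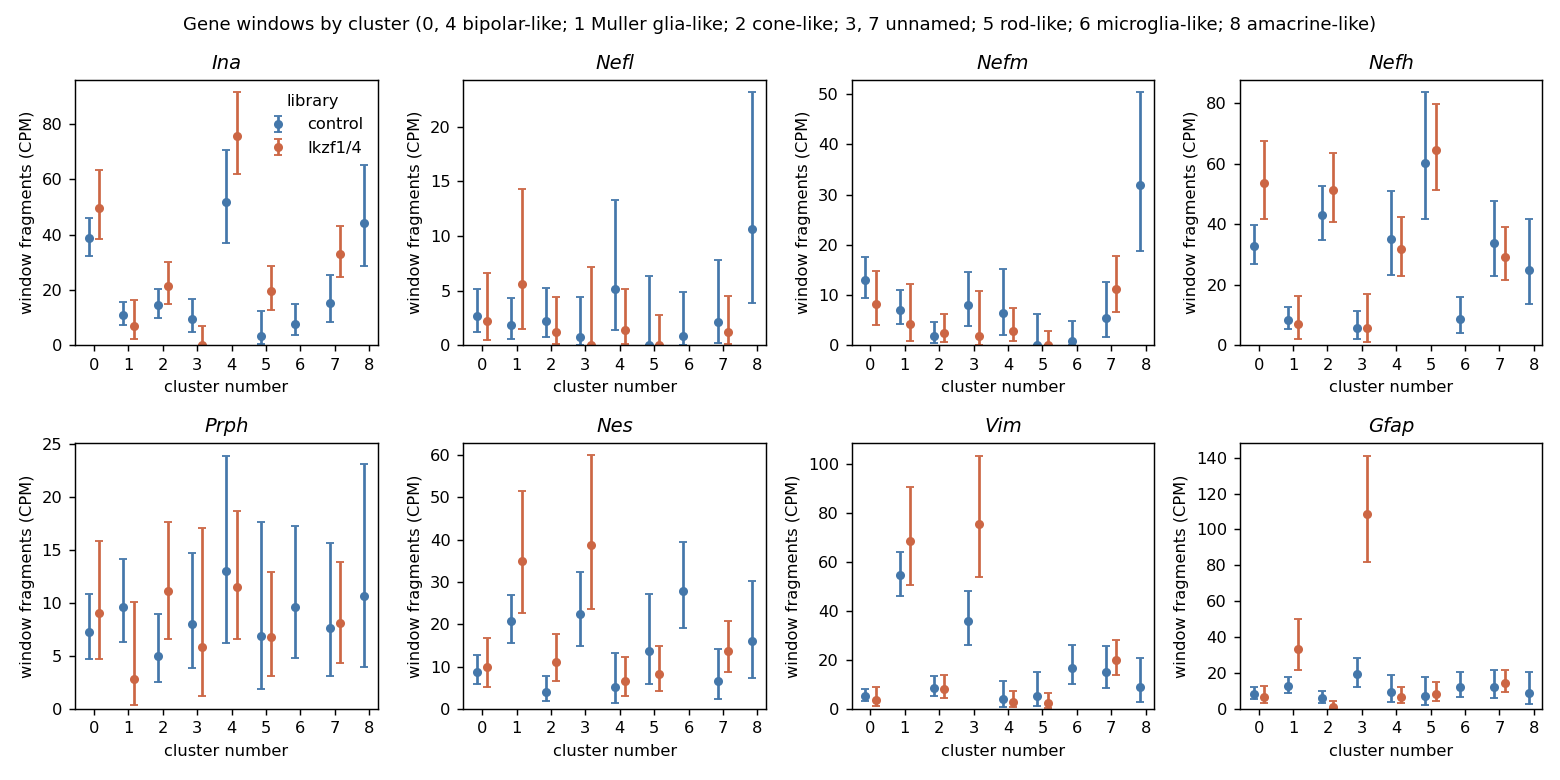
Fragments in each gene window by cluster, in CPM, for the control (blue) and Ikzf1/4 (orange) libraries, with 95% exact Poisson intervals; only clusters with at least 30 cells of a library are drawn. Vim stands high in clusters 1 and 3 and Ina in clusters 0 and 4, and Gfap in cluster 3 reaches 109 CPM with Ikzf1/4, where control cells have 19.2.

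Over all cells of either cluster with glial markers, the Gfap window had a higher CPM in the Ikzf1/4 library. For the 8 genes, ratios were taken in the 7 clusters with at least 30 cells in each library, so 56 cluster values were looked at, and the closer look at clusters 1 and 3 was chosen after they were seen. The interval excluded 1 in 11 of the 56, and 2 had no fragment in either library. Over all windows with at least 100 fragments it did so in 18.1% in cluster 0, 16.1% in cluster 1, 19.2% in cluster 2, 27.9% in cluster 3, 19.0% in cluster 4, 13.9% in cluster 5 and 30.7% in cluster 7, a range that holds the share of the 11, although most of the 56 rest on fewer than 100 fragments. In cluster 3, Gfap had 24 fragments in 260 control cells (19.2 CPM) and 56 in 70 Ikzf1/4 cells (109 CPM), a ratio of 5.67 (3.46 to 9.56). In cluster 1 it had 34 fragments in 373 control cells (12.6 CPM) and 24 in 60 Ikzf1/4 cells (33.5 CPM), a ratio of 2.67 (1.51 to 4.63).

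Vim and Nes had smaller ratios in the same cells, and whether they differ from that of Gfap was not tested. In cluster 3 Vim had 45 and 39 fragments (35.9 and 75.7 CPM), a ratio of 2.11 (1.34 to 3.31), and in cluster 1 148 and 49 (54.7 and 68.4 CPM), a ratio of 1.25 (0.89 to 1.74). Nes had 28 and 20 fragments in cluster 3 (22.4 and 38.8 CPM; ratio 1.74, 0.93 to 3.19) and 56 and 25 in cluster 1 (20.7 and 34.9 CPM; ratio 1.69, 1.01 to 2.75). Without the cell with most fragments of each library the Nes ratio in cluster 3 was 1.06 (0.45 to 2.31), and in cells of both clusters with at least 10000 fragments it was 0.89 (0.48 to 1.63). Outside these clusters the interval of Nes excluded 1 in cone-like cluster 2, at 2.73 (1.16 to 6.89). The 12 Müller glia markers summed to 1679 and 2127 CPM in cluster 3, a ratio of 1.27 (1.18 to 1.36). In cluster 1 they summed to 1357 and 1591 CPM, a ratio of 1.17 (1.10 to 1.25). Single markers ran from 0.85 (Abca8a, 0.60 to 1.18) to 1.99 (Kcnj10, 1.53 to 2.58) in cluster 3. Those of cluster 1 ran from 0.92 (Clu, 0.67 to 1.24) to 1.37 (Kcnj10, 1.09 to 1.70). Median fragments per cell were 4305 and 6821 in cluster 3 and 6855 and 12592 in cluster 1, and the part of this depth gap was not tested.

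Most Gfap fragments of cluster 3 were held by few cells. In cluster 3, 4 of 260 control cells held at least 2 of them and together 16 of the 24, while 12 of 70 Ikzf1/4 cells held 50 of the 56. The 5 astrocyte markers (Pax2, Pdgfra, Aldh1l1, Slc14a1 and S100b) summed to 938 CPM in those control cells and 389 CPM in those Ikzf1/4 cells, against 134 and 209 CPM in the rest of the cluster. The 938 CPM rest on 15 fragments in those 4 cells: 6 at Pax2, 4 at Pdgfra, 4 at Aldh1l1, 1 at Slc14a1 and 0 at S100b. The 389 CPM rest on 42 fragments: 25 at Aldh1l1, 10 at Slc14a1, 4 at Pdgfra, 3 at Pax2 and 0 at S100b. In the same control and Ikzf1/4 cells the 12 Müller glia markers summed to 1501 and 2276 CPM, against 1681 and 2087 CPM in the rest. In cluster 1, 3 control and 5 Ikzf1/4 cells held at least 2 Gfap fragments, together 9 of the 34 and 17 of the 24. The astrocyte markers summed to 85.7 and 213 CPM in those cells, against 213 and 215 CPM in the rest. Over all of cluster 3 they summed to 144 and 246 CPM. Aldh1l1 had a ratio of 2.23 (1.61 to 3.07), Slc14a1 1.93 (1.07 to 3.45) and S100b 1.62 (0.34 to 6.83). Pdgfra had 1.22 (0.57 to 2.45) and Pax2 0.74 (0.34 to 1.49). None of the 5 was at 0 over the whole cluster. The part of astrocytes in the Gfap value was not tested. In clusters 1 and 3 together the Gfap ratio was 4.43 (3.12 to 6.33), and 4.53 (3.11 to 6.65) without the cell with most fragments of each library. Limited to cells with at least 10000 fragments it was 2.59 (1.38 to 5.05). In cluster 1 alone these were 2.11 (1.07 to 4.01) and 1.85 (0.92 to 3.80), the latter with an interval that holds 1. In cluster 3 alone the first was 7.09 (3.94 to 13.4), and 6 control and 9 Ikzf1/4 cells reached 10000 fragments, with 0 and 11 Gfap fragments.

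Along the gene, the Gfap bin with most fragments of clusters 1 and 3 lay upstream. This bin, from -1636 to -1136 bp counted from the start site, held 14 control fragments (3.54 CPM) and 20 Ikzf1/4 fragments (16.2 CPM), a ratio of 4.59 (2.20 to 9.83), against 0.41 CPM in all other cells. The bin over the start site itself, from -136 to 364 bp, held 6 and 9 fragments (1.52 and 7.31 CPM; ratio 4.82, 1.53 to 16.5), and that from 3864 to 4364 bp within the gene 9 and 9 (2.27 and 7.31 CPM; ratio 3.21, 1.13 to 9.14). The upstream bin overlaps the noncoding Gm34560. Over all cells, 11.4% (control) and 17.5% (Ikzf1/4) of Gfap fragments lay within 500 bp of the start site. The start site of Gm34560 (102897345, opposite strand) lies within the Gfap promoter sequence shown, and 12.9% and 17.5% lay within 500 bp of it, so these fragments cannot be told apart by gene.

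Vim was open mostly at its promoter, where 67.8% of control and 60.7% of Ikzf1/4 fragments lay within 500 bp of the start site. In clusters 1 and 3 the 500 bp that include the sequence shown above held 115 and 46 fragments (29.1 and 37.4 CPM; ratio 1.29, 0.89 to 1.82), against 1.94 CPM in other cells. At Nes 32.6% and 21.8% lay near the start site, and the first 500 bp of the gene held 5.56 and 6.497 CPM in clusters 1 and 3. At Ina 46.6% and 48.6% did. In bipolar-like clusters 0 and 4 the 500 bp before the Ina start site held 58 and 57 fragments (14.3 and 20.98 CPM; ratio 1.47, 1.002 to 2.16), and 2.46 CPM in other cells.

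**Figure D5:**
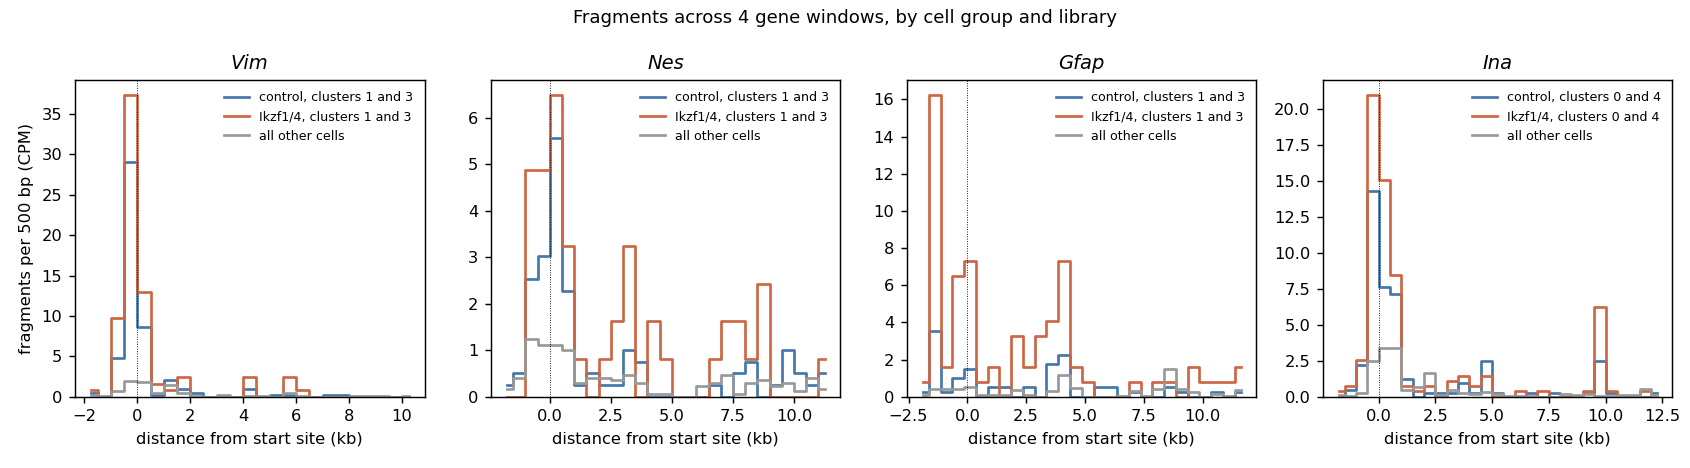
Fragments per 500 bp across the Vim, Nes, Gfap and Ina windows, in CPM, against distance from the start site in kb (dotted line, 0), for clusters 1 and 3 (Vim, Nes, Gfap) or 0 and 4 (Ina) in the control (blue) and Ikzf1/4 (orange) libraries and for all other cells (grey). Vim and Ina peak at the start site, and the highest Gfap bin lies upstream, at 16.2 CPM with Ikzf1/4, where control cells have 3.54.

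Among the neuronal genes, the interval of the Ina ratio lay above 1 in clusters 4, 5 and 7 and held 1 in bipolar-like cluster 0. In cluster 3, with 12 control and 0 Ikzf1/4 fragments, it lay below 1, reaching 0.87. Ina had 40 and 105 fragments in bipolar-like cluster 4 (51.9 and 75.6 CPM), a ratio of 1.45 (1.002 to 2.15), and 128 and 66 in cluster 0 (38.9 and 49.7 CPM), a ratio of 1.28 (0.94 to 1.74). In rod-like cells it had 2 and 26 fragments (3.43 and 19.7 CPM), a ratio of 5.74 whose interval runs from 1.44 to 49.9, and in cluster 7 14 and 53 (15.2 and 33.1 CPM), a ratio of 2.17 (1.19 to 4.24). Nefh had 108 and 71 fragments in cluster 0 (32.8 and 53.5 CPM; ratio 1.63, 1.19 to 2.22) and 35 and 85 in rod-like cells (60.1 and 64.3 CPM; ratio 1.07, 0.71 to 1.64).

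Weighting the levels of those 7 clusters by the control's shares of fragments, an alternative added after seeing the data, gave library ratios of 2.27 for Gfap, 1.59 for Nes, 1.33 for Vim, 1.28 for Ina, 1.24 for Nefh, 1.06 for Nefl, 0.97 for Prph and 0.69 for Nefm. In the same 7 clusters without weights these were 1.53, 1.17, 0.80, 1.55, 1.43, 0.69, 1.10 and 0.66. With these weights Gfap, Nes and Vim stood higher and Ina and Nefh lower, and Nefm was little moved. Vim and Nefl went from below 1 to above it, and Prph from above 1 to below it. The weighted ratios have no interval.

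Windows whose levels followed these genes most closely were sought over 16 cluster and library sums among 11305 windows. The points share libraries and depth, so Pearson's r is a description. Vim was followed by Alpk1 (0.97), Kdr (0.97) and the Müller glia potassium channel Kcnj10 (0.97), Nes by Src (0.92), Retreg1 (0.90) and Arhgef40 (0.88), Gfap by Creb3l2 (0.88), Tulp3 (0.88) and Sorbs3 (0.87), and Ina by Foxn1 (0.94), Elfn2 (0.92) and Apba1 (0.92). Among the 8 genes themselves, the highest values were 0.78 for Nes with Vim, 0.74 for Nefl with Nefm and 0.73 for Vim with Gfap, and the lowest was -0.87 for Nefh with Vim.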

How the data were processed

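The genes and lists were chosen with earlier results of these data known. Poly(A) fibroblast RNA was quantified with Salmon, per the submitters' processing notes, and the authors deposited estimated counts per transcript, used here only for depth. The authors' deposited DESeq2 table gives a mean normalised signal, log2 fold change, SE and p-values per gene, and a Wald score; the median SE was 0.069 at means under 10 and 0.17 at 100 to 200, so fold changes may be shrunk. The gene test planned on counts could not be run, because transcripts are not paired with genes.

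Per the file headers the multiome fragments came from cellranger-arc 2.0.1 and hold counts of read pairs per unique fragment, deposited by the authors. Cells had at least 3000 fragments, start-site enrichment of at least 4 and lay below the 99th percentile of fragments; no doublet caller was run. Windows (GRCm38.p6) were clustered by TF-IDF, SVD (30 components, the depth-related one dropped), 20 neighbours and Leiden at resolution 0.8 (scikit-learn, leidenalg; Python). Intervals were tested only on simulated counts drawn independently for each window. Fragments held together in the same cell were not simulated, so that test does not cover them. The fold of 1.5 and the minimum of 100 fragments were set at analysis. Named genes were the 8, up to 4 called genes per list by absolute fold change, 3 markers per class and 3 windows by Pearson's r of log2(CPM + 1) with at least 500 fragments; some genes this rule names are not reported here. Alternatives are given in the report and the closing section; for the multiome they were cells with at least 10000 fragments, all barcodes, scaling to gene windows, the gene body alone, 500 bp around the start site, thinning, the share of cells with a fragment, clustering resolutions 0.4 and 1.2 and, added after seeing the data, window parts outside other genes, weights by control shares and leaving out the cell with most fragments. Peak lists were not used here.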

Additional observations from a re-analysis of the deposited data

Results flagged for a closer look

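At 2 genes the library ratio pointed in opposite directions in different clusters, each with an interval that excludes 1. The difference between clusters was not tested. Gfap had ratios of 5.67 in cluster 3 and 2.67 in Müller glia-like cluster 1, and 0.21 in cone-like cluster 2, where 13 control and 2 Ikzf1/4 fragments were counted. Ina had ratios of 1.45 in bipolar-like cluster 4, 5.74 in rod-like cluster 5 and 2.17 in cluster 7, and 0 in cluster 3, where 12 control and 0 Ikzf1/4 fragments were counted and the interval reaches 0.87. These were picked from 56 cluster values, and across windows with at least 100 fragments in the cluster the interval excluded 1 in 27.9% in cluster 3, 19.2% in cluster 2 and 13.9% in cluster 5. The Gfap and Ina windows named in those 3 clusters each hold fewer fragments than that.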

How the results depend on the processing

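No paired analysis was possible because the fibroblast gene values come from the authors' table, which has no libraries, and the multiome has 1 library per group; for the same reason no library could be left out. In fibroblasts the called genes went from 2 to 1 with an absolute log2 fold change over 1 and stayed at 2 with every raw p adjusted. Among genes at or above the median count 1 was called, because Ina lies below that count and was not tested there. Intervals above 1 over all cells numbered 3 and became 2 with at least 10000 fragments, for the gene body alone and thinned to 3000 fragments, and 1 for the share of cells with a fragment. Intervals below 1 numbered 1 and became 0 with at least 10000 fragments, 2 scaled to fragments in gene windows, 0 for the gene body alone, 0 thinned to 3000 fragments and 0 for the share of cells. Thinning gave 1.13 for Ina and 1.11 for Vim, and at least 10000 fragments gave 1.07 for Gfap and 1.88 for Ina. Genes highest in a Müller glia-like cluster numbered 1, and 3 with at least 10000 fragments, where cluster 3 drops out with 6 control and 9 Ikzf1/4 cells, 0 for the gene body and 2 at resolution 0.4. With at least 10000 fragments Nefl and Nefm were no longer highest in amacrine-like cells. That limit leaves out many amacrine-like cells, whose median was 8202 fragments. Resolution 0.4 gave no amacrine-like cluster, so it cannot show whether Nefl and Nefm stay highest there. At resolution 1.2 both stayed highest in amacrine-like cells. In clusters 1 and 3 together the Nes ratio of 1.72 turned to 0.89 (0.48 to 1.63) in cells with at least 10000 fragments. These were 75 control and 44 Ikzf1/4 cells. Among them cluster 1 gave 1.41 (0.72 to 2.76), and cluster 3 had 9 fragments in 6 control and 0 in 9 Ikzf1/4 cells. Without the cell with most fragments of each library the Nes ratio of both clusters together was 1.43 (0.93 to 2.15). The cause of the turn was not tested. The Müller glia-like cluster at resolution 0.4 holds the same 763 cells as clusters 1 and 3, so it is no separate check. Of 66 alternative library ratios over all cells, 53 stayed within the counting interval of the value given, 13 moved out of it and 0 reversed a ratio whose interval excluded 1.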
